A study of Mus musculus with 35 samples.

Results

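The 5 heart and 6 colon libraries of a mouse tissue RNA-seq series were set against each other, gene by gene. They were chosen by tissue, from the labels, and make up 11 of the 29 RNA-seq libraries and 11 of all 35 samples of the series. Heart was represented by 3 libraries from females and 2 from males, and colon by 3 libraries from each sex. All came from adult C57BL/6J mice, and the labels name no treatment. Ribosomal RNA was depleted before strand-specific libraries were made, so that transcripts without a poly(A) tail were retained. The labels give whole tissues, without the layer of the colon or the chamber of the heart, and do not say which libraries shared an animal, so P values measure the spread between these libraries. Of 55356 loci in the count table, 21563 passed a filter on low counts over the 11 libraries, and these were compared as the mean of the female and male heart groups against the mean of the female and male colon groups.

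Heart and colon are both built around muscle, but around muscle of different kinds. The working cell of the heart is the striated cardiomyocyte, in which actin and myosin are ordered in sarcomeres, calcium is released from the sarcoplasmic reticulum at each beat, and ATP comes mainly from oxidation of fatty acids in densely packed mitochondria. The wall of the colon holds smooth muscle, which lacks sarcomeres and is switched on by phosphorylation of its myosin light chain. Its inner face is a renewing epithelium of absorptive colonocytes, mucus-secreting goblet cells and hormone-secreting enteroendocrine cells, and nerve cells, glia and lymphocytes lie beneath it.

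Total counts ranged from 19590147 to 25062064 in heart and from 11742417 to 18890658 in colon. The defining markers went with the labels in all 11 libraries, in that the summed level of 28 sarcomere genes was 28600 to 66500 FPKM in heart and 326 to 641 FPKM in colon. FPKM here is counts per kilobase of exons, scaled to the library's total count as is usual for this unit. In contrast, 3 libraries stood apart from the rest of their tissue by markers of other tissues or of the atria. In female heart 3, atrial genes summed to 5290 FPKM, against 48.3 to 184 FPKM in the other 4 hearts, and the fat list summed to 5950 FPKM, against 385 to 517 FPKM. *Adipoq*, a fat cell hormone, was at 695 FPKM there and at 0.0517 to 1.74 FPKM in the other hearts, and *Sftpc*, the surfactant protein of the lung, was at 28.8 FPKM and at most 0.116 FPKM. Female colon 1 and male colon 3 held genes of the small intestine, with *Reg3b*, an antibacterial lectin, at 1800 and 1580 FPKM and at 0.233 to 5.79 FPKM in the other 4 colons. Male colon 1 had more of the IgM heavy chain, *Ighm*, at 96.4 FPKM and at 11.4 to 17.4 FPKM in the other colons. Its sums for cell division and for fibroblasts were also far from those of the other colons, and it was kept. Without it alone 13033 genes were called, 6202 higher in heart and 6831 in colon. Results are therefore given for all 11 libraries and, where they moved, without female heart 3, female colon 1 and male colon 3, a choice made after these values were seen. The part of these tissues in the results was not tested beyond leaving the libraries out.

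**Figure D1:**
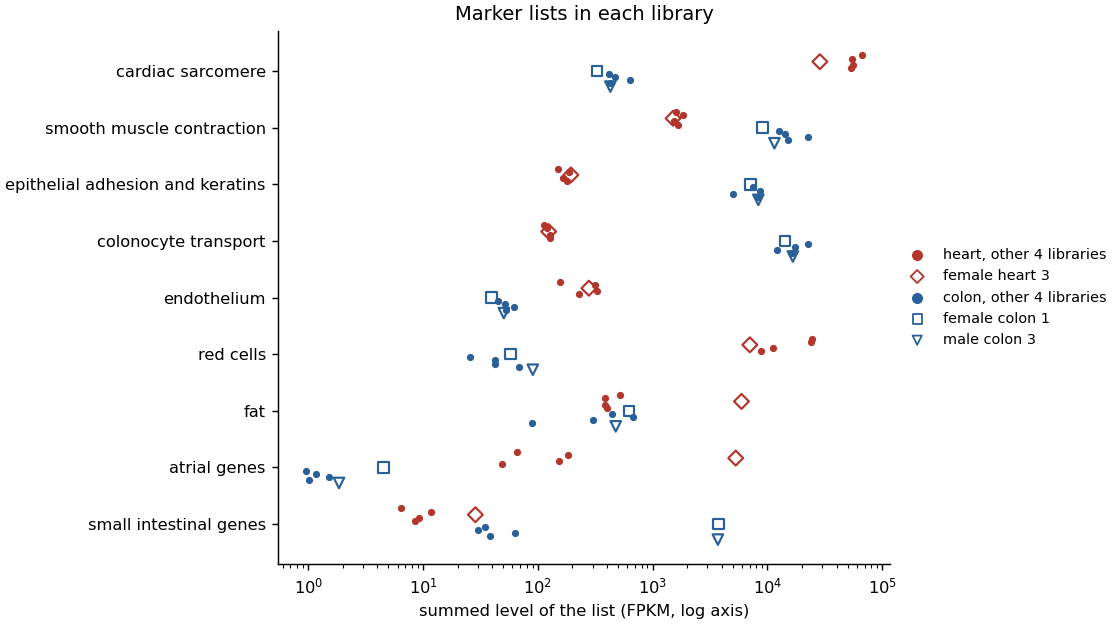
Summed level of 9 marker lists in each library (FPKM, log axis), with 1 symbol for each library, red for heart and blue for colon, and open symbols for the 3 libraries that stood apart. Female heart 3 reached 5950 FPKM for the fat list and 5290 FPKM for atrial genes, while the sarcomere list did not overlap between the tissues.

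Most genes differed between the tissues. With edgeR's quasi-likelihood test and Benjamini-Hochberg adjustment at 0.05, 13742 of 21563 genes (63.7%) were called, 6420 (29.8%) higher in heart and 7322 (34%) higher in colon. Of 15596 protein-coding genes, 5430 were higher in heart and 5021 in colon, with a median log2 difference (heart minus colon) of 0.03, whereas 367 of 888 pseudogenes were higher in colon and 106 in heart. Large differences lay more often on the colon side, since 1263 of the called genes had a log2 difference of at least 5 in favour of colon and 482 in favour of heart. Libraries of the tissues did not overlap for 8988 of the 21563 genes. Without the 3 libraries, 20559 genes were tested, and 6157 of the genes higher in heart and 6756 of those higher in colon were called again in the same direction, while 0 changed direction, 466 were no longer called and 363 no longer passed the filter on low counts.

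The division into heart and colon calls depended on the scaling. The log2 differences were scaled with TMM (trimmed mean of M values), which assumes that most genes do not change, and their median over all genes was -0.16. With library totals in place of TMM the median was -0.68, and 3896 genes were then higher in heart and 9781 in colon, so that 28.5% of calls favoured heart and not 46.7%. FPKM are scaled to library totals, and ratios of FPKM therefore favour colon more than the log2 differences do. As bulk tissue was sequenced, a higher share of a cell type and more RNA in each of its cells cannot be told apart.

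**Figure D2:**
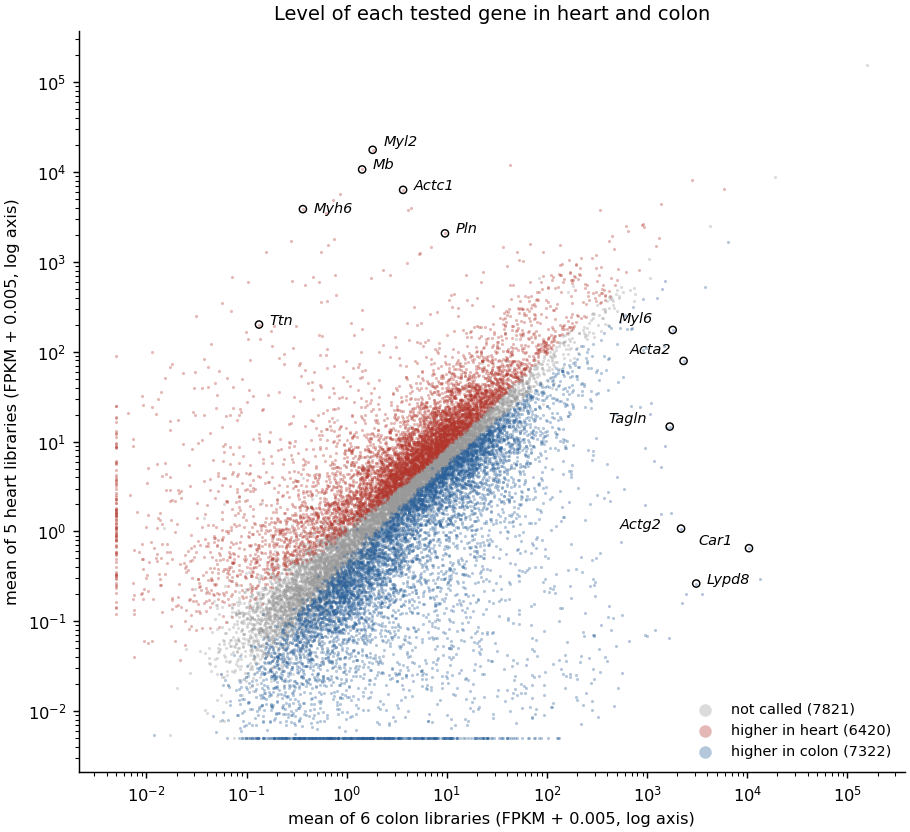
Mean FPKM of each of 21563 genes over 5 heart libraries (vertical) and 6 colon libraries (horizontal), on log axes with 0.005 added, coloured by call. Labelled sarcomere genes lie at the upper left, with *Myl2* at 17700 FPKM in heart, and labelled smooth muscle and colonocyte genes at the right, with *Car1* at 10400 FPKM in colon.

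The sarcomere genes were higher in heart without exception. All 28 members tested were higher in heart, against 29.8% of all genes tested, with a median log2 difference of 10.71 (11.34 without the 3 libraries). For 27 of them the libraries did not overlap, against 8988 of the 21563 genes tested. *Myl2*, the ventricular regulatory light chain of myosin, was the most abundant, at 26300, 19100 and 8550 FPKM in female hearts 1 to 3 and 19100 and 15500 FPKM in male hearts 1 and 2. In colon it ranged from 0.503 to 4.28 FPKM with a median of 1.31 FPKM. Female heart 3 was the lowest heart library and still far above each colon. The log2 difference was 14.04 ± 0.715 (SE, adjusted P = 8.52e-09).

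*Myh6*, the fast cardiac myosin heavy chain, was at 3440, 4470, 1790, 4950 and 4720 FPKM in the hearts in the same order, and at 0.0439 to 0.695 FPKM (median 0.341) in colon. Its log2 difference was 14.54 ± 0.624 (adjusted P = 3.53e-09). *Myh7*, the slow heavy chain, had far lower levels in these adult hearts, from 13.7 to 24.7 FPKM, and 3 counts in all over the 6 colons. *Actc1*, cardiac alpha-actin, was at 6270, 6320, 3150, 8060 and 7910 FPKM in heart and at 2.45 to 4.98 FPKM (median 3.39) in colon, with a log2 difference of 11.41 ± 0.512 (adjusted P = 4.07e-09). *Myl3*, the essential light chain, was at 7330, 6320, 2690, 6230 and 6260 FPKM in heart and at 0.189 to 2.72 FPKM (median 0.516) in colon, which gave 13.51 ± 0.736 (adjusted P = 1.42e-08). In each of these genes female heart 3 was the lowest of the hearts, and no heart library reached down to the colons.

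The thin filament regulators followed the same order. Troponin T (*Tnnt2*) was at 3800 ± 1130 FPKM (SD, n = 5) in heart and 4.04 ± 2.73 FPKM (n = 6) in colon, with a log2 difference of 10.53, which was 11.36 without the 3 libraries. Troponin C (*Tnnc1*) differed by 13.18, and the locus that joins *Tnni3*, troponin I, with its neighbour *Dnaaf3* differed by 11.86, so that the 2 genes of that locus cannot be separated. *Tpm1*, a tropomyosin used by both kinds of muscle, had the smallest difference of the list, 2.66 ± 0.364 (adjusted P = 3.94e-05), with 1690 ± 475 FPKM in heart and 420 ± 101 FPKM in colon. The giant scaffold titin (*Ttn*) was at 201 ± 45.4 FPKM in heart and 0.128 ± 0.0841 FPKM in colon. *Myl4*, an atrial light chain, was the member whose libraries overlapped, from 0.266 to 303 FPKM in heart and from 0.321 to 0.987 FPKM in colon, and its highest value was that of female heart 3.

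Promoter windows of 5 muscle genes and 1 colonocyte gene are shown because each holds a motif of a factor known to act in that tissue. The windows are RefSeq sequences on GRCm38.p6, from 250 bases before to 50 bases after the annotated start, printed 5′ to 3′ on the strand of the gene, with the matched motif in capitals. Serum response factor binds the CArG box in promoters of cardiac and smooth muscle genes alike. For the striated genes *Actc1* and *Myl3*, whose CArG boxes begin 47 and 85 bases before the start, and the smooth muscle light chains *Myl6* and *Myl9*, whose boxes begin 50 and 161 bases before it, the windows are as follows. RefSeq gives 2 starts for *Myl6*, and the window shown is that of the start inside the locus, since the window of the outer start holds no such box.
Actc1, chr2:114052826-114053125, minus strand: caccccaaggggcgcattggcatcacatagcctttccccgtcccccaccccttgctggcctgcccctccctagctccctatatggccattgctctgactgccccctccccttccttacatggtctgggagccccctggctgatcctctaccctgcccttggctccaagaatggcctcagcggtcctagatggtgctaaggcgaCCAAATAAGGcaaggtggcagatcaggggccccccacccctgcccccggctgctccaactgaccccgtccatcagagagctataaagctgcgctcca
Myl3, chr9:110763428-110763727, plus strand: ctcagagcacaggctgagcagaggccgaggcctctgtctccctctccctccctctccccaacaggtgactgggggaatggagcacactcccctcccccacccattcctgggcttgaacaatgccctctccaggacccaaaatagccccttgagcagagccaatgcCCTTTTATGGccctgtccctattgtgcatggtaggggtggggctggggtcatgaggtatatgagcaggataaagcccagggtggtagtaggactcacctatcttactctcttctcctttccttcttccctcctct
Myl6, chr10:128492960-128493259, minus strand: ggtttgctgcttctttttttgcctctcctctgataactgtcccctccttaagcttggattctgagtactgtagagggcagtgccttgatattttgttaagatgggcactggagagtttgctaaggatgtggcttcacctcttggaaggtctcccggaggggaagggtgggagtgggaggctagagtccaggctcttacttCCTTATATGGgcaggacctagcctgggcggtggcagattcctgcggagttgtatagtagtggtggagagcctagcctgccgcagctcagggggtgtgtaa
Myl9, chr2:156775214-156775513, plus strand: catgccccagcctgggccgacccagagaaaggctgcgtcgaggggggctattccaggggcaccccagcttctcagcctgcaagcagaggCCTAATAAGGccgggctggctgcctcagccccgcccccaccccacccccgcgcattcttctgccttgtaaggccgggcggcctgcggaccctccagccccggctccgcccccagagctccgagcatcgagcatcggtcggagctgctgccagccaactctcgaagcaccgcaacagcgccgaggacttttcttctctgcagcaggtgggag
The window of *Mybpc3*, which encodes a thick filament protein at 597 ± 193 FPKM in heart and 0.0992 ± 0.0612 FPKM in colon, holds a MEF2 site beginning 90 bases before the start.
Mybpc3, chr2:91117894-91118193, plus strand: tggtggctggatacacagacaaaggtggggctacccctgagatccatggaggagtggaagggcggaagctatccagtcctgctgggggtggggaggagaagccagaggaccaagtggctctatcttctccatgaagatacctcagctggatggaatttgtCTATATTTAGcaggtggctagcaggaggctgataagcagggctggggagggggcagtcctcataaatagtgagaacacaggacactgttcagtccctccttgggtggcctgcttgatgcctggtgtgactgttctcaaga

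On both strands, a CArG box was found in the windows of 192 of 11934 tested protein-coding genes (1.61%) and of 1.81% of 27025 genes with a window. It was found in 6 of 24 sarcomere genes (*Actc1*, *Ldb3*, *Myl3*, *Myl7*, *Myom1* and *Nebl*) and in 2 of 24 smooth muscle genes. A MEF2 site was found in 281 tested protein-coding genes (2.35%) and in 3.7% of all genes with a window, in 4 of 24 sarcomere genes (*Mybpc3*, *Myoz2*, *Ttn* and *Xirp2*) and in 1 of 24 smooth muscle genes (*Synpo2*). Among genes called higher in heart the shares were 1.55% for the CArG box and 3.09% for the MEF2 site, and among those called higher in colon 1.95% and 1.79%. These are counts of matching letters in short windows, and binding was not measured.

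Genes of calcium handling and excitation were also higher in heart, by less. Of 28 members, 27 were higher in heart and 1 in colon, with a median log2 difference of 4.54 (3.95 without the 3 libraries). *Pln*, the phospholamban that restrains the calcium pump, was at 2750, 2020, 1370, 1940 and 2350 FPKM in heart and at 6.13 to 12.1 FPKM (median 9.29) in colon, a log2 difference of 8.40 ± 0.431 (adjusted P = 8.91e-09). The pump itself, *Atp2a2*, was at 1140, 1480, 791, 1610 and 1490 FPKM in heart. In colon it ranged from 40.6 to 56.8 FPKM (median 51.4), so that it was the less restricted of the pair, with a log2 difference of 5.33 ± 0.337 (adjusted P = 4.59e-08).

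The release channel *Ryr2* was at 67.8 ± 20.1 FPKM in heart and 1.28 ± 0.559 FPKM in colon, and the calcium-binding protein of the store, *Casq2*, was at 197 ± 50 and 5 ± 1.47 FPKM. *Cacna1c* and *Slc8a1*, of calcium entry and exit at the cell surface, differed by less than these. The L-type channel *Cacna1c* was at 7.61 ± 2.46 and 2.98 ± 0.958 FPKM (log2 difference 1.99), and the sodium-calcium exchanger *Slc8a1* at 31.8 ± 4.42 and 15.2 ± 1.27 FPKM (1.66). *Gja5*, the connexin of atrial muscle, conduction fibres and arteries, was the member higher in colon, at 11.6 ± 7 FPKM against 1.83 ± 2.41 FPKM, with a log2 difference of -2.49 ± 0.575 (adjusted P = 0.00222) that was -3.63 without the 3 libraries. *Gja1*, the main connexin of ventricular muscle, was higher in heart by 2.63 ± 0.199.

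Of 21 cardiac transcription factors, 20 were higher in heart and 1 in colon. *Tbx5* had no count in any colon and 7.51 to 13.4 FPKM in heart, which puts it at least 137-fold higher in the lowest heart than 3 counts would be in any colon. *Nkx2-5*, another early cardiac factor, also had no count in colon and was at least 45.2-fold higher. *Gata4* was at 19.6 ± 5.16 FPKM in heart and 0.0327 ± 0.0595 FPKM in colon, whereas *Gata6* was at 9.3 ± 0.591 and 3.3 ± 0.721 FPKM. The paired HAND factors went in opposite directions. *Hand1* was at 4.72 to 22 FPKM in colon and at most 0.0274 FPKM in heart, with a log2 difference of -9.21 ± 0.703 (adjusted P = 2.38e-07). *Hand2* was at 20 ± 4.54 FPKM in heart and 10.4 ± 2.49 FPKM in colon, with overlapping libraries and a log2 difference of 1.56 ± 0.28 (adjusted P = 0.000354). Of the MEF2 family, *Mef2a*, *Mef2c* and *Mef2d* differed by 1.54, 1.64 and 1.07.

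All 10 members of the hormone and stress list were higher in heart. *Nppb*, which encodes B-type natriuretic peptide, was at 108, 159, 123, 153 and 139 FPKM in heart and at most 0.436 FPKM in colon. *Nppa*, which encodes the atrial peptide, varied far more among the hearts, from 41 to 90.1 FPKM in 4 of them to 2770 FPKM in female heart 3, and was at 0.0702 to 0.715 FPKM in colon. Its log2 difference of 10.13 ± 1.07 (adjusted P = 4.16e-06) was 9.53 without the 3 libraries. Among chaperones of striated muscle, *Cryab*, *Hspb6* and *Hspb7* differed by 4.98, 4.26 and 5.96.

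The genes that bring fatty acids to the mitochondrion and oxidise them were higher in heart at nearly every step. Of 28 members, 25 were higher in heart, 1 in colon and 2 were not called, with a median log2 difference of 3.12. Uptake was represented by *Cd36*, at 335 ± 55 FPKM in heart and 17.7 ± 4.49 FPKM in colon, and by lipoprotein lipase (*Lpl*), at 902 ± 169 and 40 ± 12.6 FPKM. The gate of mitochondrial import is carnitine palmitoyltransferase 1, and its muscle and liver isoforms went in opposite directions. *Cpt1b* was at 152, 170, 80, 177 and 192 FPKM in heart and at 0.893 to 1.67 FPKM (median 1.16) in colon. *Cpt1a* was at 11, 15.8, 14.9, 15.1 and 14.7 FPKM in heart and at 40.7 to 84.2 FPKM (median 55.2) in colon. Neither overlapped, and their log2 differences were 7.68 ± 0.377 and -1.45 ± 0.185 (adjusted P = 6.76e-09 and 2.12e-05).

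Beyond that step, the long- and medium-chain dehydrogenases *Acadl* and *Acadm* differed by 3.42 and 3.79. The short-chain dehydrogenase *Acads* was at 70 ± 9.75 FPKM in heart and 79.8 ± 28.3 FPKM in colon and was not called (log2 difference 0.45 ± 0.274, adjusted P = 0.169), although it was called without the 3 libraries (0.51). Of 16 genes of pyruvate oxidation and the citric acid cycle, 15 were higher in heart, with a median of 2.98. Citrate synthase (*Cs*) was at 235 ± 44.3 FPKM in heart and 65.4 ± 8.44 FPKM in colon. *Suclg2*, the GTP-forming subunit of succinyl-CoA ligase, was the exception, at 45.2 ± 5.2 and 61.5 ± 10.1 FPKM (0.16 ± 0.233, adjusted P = 0.557; -0.43 and called higher in colon with library totals), while the ATP-forming subunit *Sucla2* was higher in heart by 2.97 ± 0.253.

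The respiratory chain was higher in heart as a whole. Of 79 nuclear genes, 76 were higher in heart, 1 in colon and 2 were not called, with a median log2 difference of 2.64. All 36 subunits of complex I, all 4 of complex II and all 9 of complex III tested were higher in heart, with medians of 2.82, 2.28 and 2.43. ATP synthase followed with 15 of 16 genes and a median of 2.54, and 1 was not called. Complex I was narrow, from 1.52 to 3.41, whereas complex IV, with 11 of 13 genes higher in heart, ranged from -1.61 to 13.23. The extremes of complex IV were the isoforms of subunit 6a. *Cox6a2*, the heart and skeletal muscle isoform, was at 2580, 2140, 787, 1270 and 1860 FPKM in heart and at 0.122 to 0.516 FPKM (median 0.253) in colon. *Cox6a1*, the form of other tissues, was at 82.1, 73.6, 150, 74 and 66 FPKM in heart and at 236 to 503 FPKM (median 373) in colon, and female heart 3 was here the highest heart. An estrogen-related receptor (ERR) site, TNAAGGTCA, was found in the promoter windows of 3 of 65 of these genes (*Atp5g3*, *Ndufb4* and *Sdhd*) and of 0.964% of tested protein-coding genes, 0.809% of those higher in heart and 1.03% of those higher in colon. It was in 1.43% of all windows, and in 0 of 24 windows of the fatty acid list and 0 of 14 of the citric acid cycle.

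**Figure D3:**
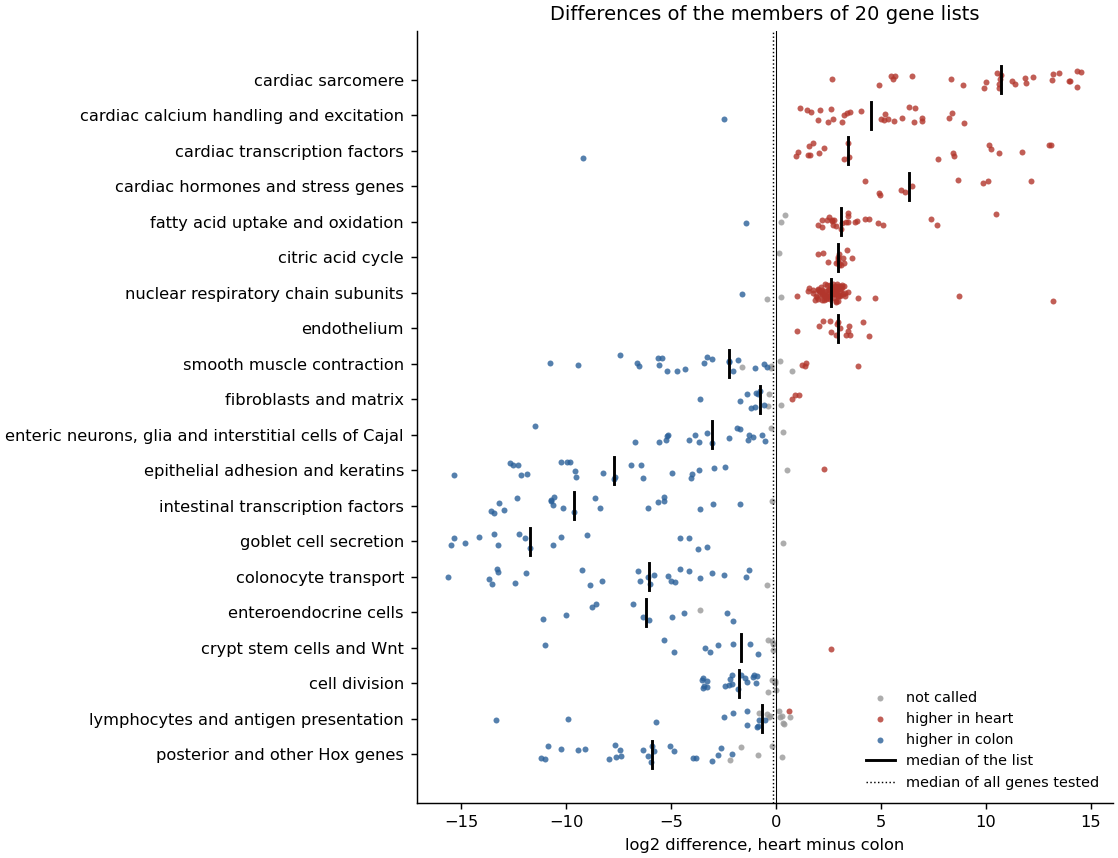
Log2 difference (heart minus colon) of each tested member of 20 gene lists, 1 point for each gene, coloured by call, with a bar at the median of the list and a dotted line at the median of all genes, -0.16. Cardiac, metabolic and endothelial lists lie to the right, from 2.64 to 10.71 at their medians, and epithelial lists to the left, down to -11.71 for goblet cells.

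The transcripts of the mitochondrial genome itself were measured as a share of all counts. Of its 29 rows 17 had no count in any library, those of both ribosomal RNAs among them. The rows of the ribosomal RNAs overlap Iso-seq loci on the same strand, and all 10 rows inside the largest mRNA locus on its strand had no count, so that a count of 0 does not show that a transcript was absent. The 3 loci of mRNAs held 99.2% of the mitochondrial counts. The share of all 29 rows together was 13.64%, 9.725% and 7.414% in female hearts 1 to 3 and 12.11% and 13.29% in male hearts 1 and 2. In colon it was 6.257%, 3.837% and 3.262% in the females and 3.519%, 2.35% and 3.698% in the males. The tissues did not overlap, and the closest libraries were female heart 3 and female colon 1, both of which stood apart in the marker lists. The mean was 11.23% ± 2.629 in heart and 3.82% ± 1.305 in colon, a ratio of 2.94, with P = 0.00433 in a two-sided exact permutation test over the 11 libraries, the smallest P that this design allows. Without the 3 libraries the means were 12.19% and 3.242% (exact P = 0.0286, again the smallest possible).

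Single mitochondrial mRNAs cannot be separated in these counts, as 10 of the 13 mRNAs share a single locus of the Iso-seq annotation, *mt-Nd5* and *mt-Cytb* share another, and *mt-Nd6* lies opposite that locus. The locus of the 10 mRNAs, listed under *mt-Co1*, was at 8140 ± 2010 FPKM in heart and 2820 ± 950 FPKM in colon, with a log2 difference of 2.20 ± 0.414 (adjusted P = 0.000521). The *mt-Nd5* locus differed by 2.36 and *mt-Nd6* by 2.18. On the same scale, the median over the nuclear respiratory genes was 2.64.

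**Figure D4:**
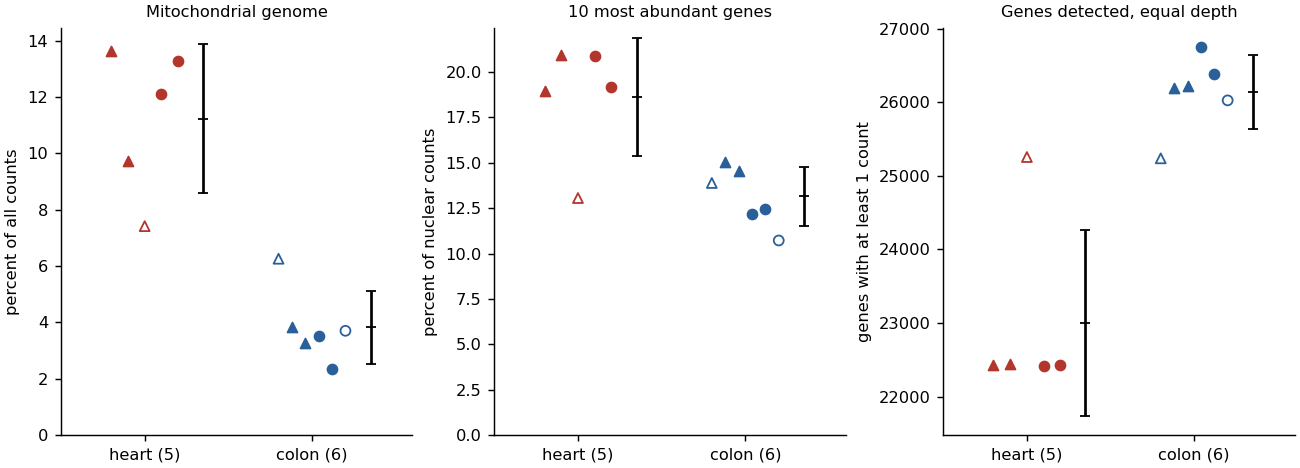
Mitochondrial share of counts, share of nuclear counts in the 10 most abundant genes, and number of genes with at least 1 count after thinning to 11007699 nuclear counts, for each heart (red) and colon (blue) library, with mean and SD beside the points; triangles are females, circles males, and open symbols the 3 libraries that stood apart. The mitochondrial share lies between 7.414% and 13.64% in heart and between 2.35% and 6.257% in colon.

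The nuclear counts of heart were concentrated on fewer genes. The 10 most abundant nuclear genes took 18.62% ± 3.243 of nuclear counts in heart and 13.15% ± 1.638 in colon (exact permutation P = 0.0173), and the libraries overlapped through female heart 3, at 13.06%. When every library was thinned to 11007699 nuclear counts, 4 hearts had between 22412 and 22440 genes with a count and female heart 3 had 25256, while the colons had 25238 to 26755. The difference of the means (heart minus colon) was -3142 genes (exact permutation P = 0.00866). Without the 3 libraries the heart mean was 22430 and the colon mean 26390, and the tissues did not overlap.

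Muscle and gut often use different genes of the same family for the same step, and 28 such pairs were followed as the ratio of their FPKM within a library, which does not depend on the scaling between libraries. In all 28 pairs the first member was called higher in heart, against 29.8% of all genes tested. In 21 the second member was called higher in colon, against 34% of all genes. The pairs were chosen with earlier results of these data known. Among the second members, *Cox7a2* shares its locus with *Tmem30a*, so that its ratio to *Cox7a1* rests on both genes. The ratios of the tissues did not overlap in 26 pairs, with or without the 3 libraries. The ratio of *Actc1* to *Actg2*, the enteric smooth muscle actin, ran from 992 to 18500 in heart and from 0.000775 to 0.00245 in colon, and the lowest heart was female heart 3. Creatine kinase changed from the muscle form *Ckm* to the brain form *Ckb*, with ratios of 44.3 to 165 and 0.246 to 0.473. The mitochondrial creatine kinases went further apart, as *Ckmt2* was at 1300 ± 398 FPKM in heart and 0.55 ± 0.169 FPKM in colon, and *Ckmt1* at 1.86 ± 0.715 and 140 ± 30.9 FPKM.

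The fatty acid binding proteins were also exchanged. *Fabp3* was at 3990 ± 1450 FPKM in heart and 4.42 ± 0.87 FPKM in colon, and the intestinal *Fabp2* at 0.194 ± 0.288 and 2460 ± 774 FPKM, with log2 differences of 10.47 and -13.49 (-14.17 for *Fabp2* without the 3 libraries). For lactate dehydrogenase, *Ldhb* was higher in heart by 5.91, while *Ldha*, at 282 ± 22.2 and 500 ± 89.4 FPKM, was not called (adjusted P = 0.313; -0.84 and called higher in colon with library totals as scaling), and the ratio of the pair was 0.386 to 0.918 in heart and 0.00791 to 0.018 in colon. The pairs with overlapping ratios were *Cox4i1* with *Cox4i2* (547 to 876 and 433 to 1840) and hexokinases *Hk1* with *Hk2* (0.547 to 0.724 and 0.472 to 0.993), in which both members were higher in heart, though not with library totals for *Hk1* (0.20) and *Hk2* (0.34). The adherens junction changed from N-cadherin (*Cdh2*), at 42.1 ± 9.76 FPKM in heart and 1.08 ± 0.181 FPKM in colon, to E-cadherin (*Cdh1*), at 0.175 ± 0.22 and 173 ± 25.6 FPKM.

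**Figure D5:**
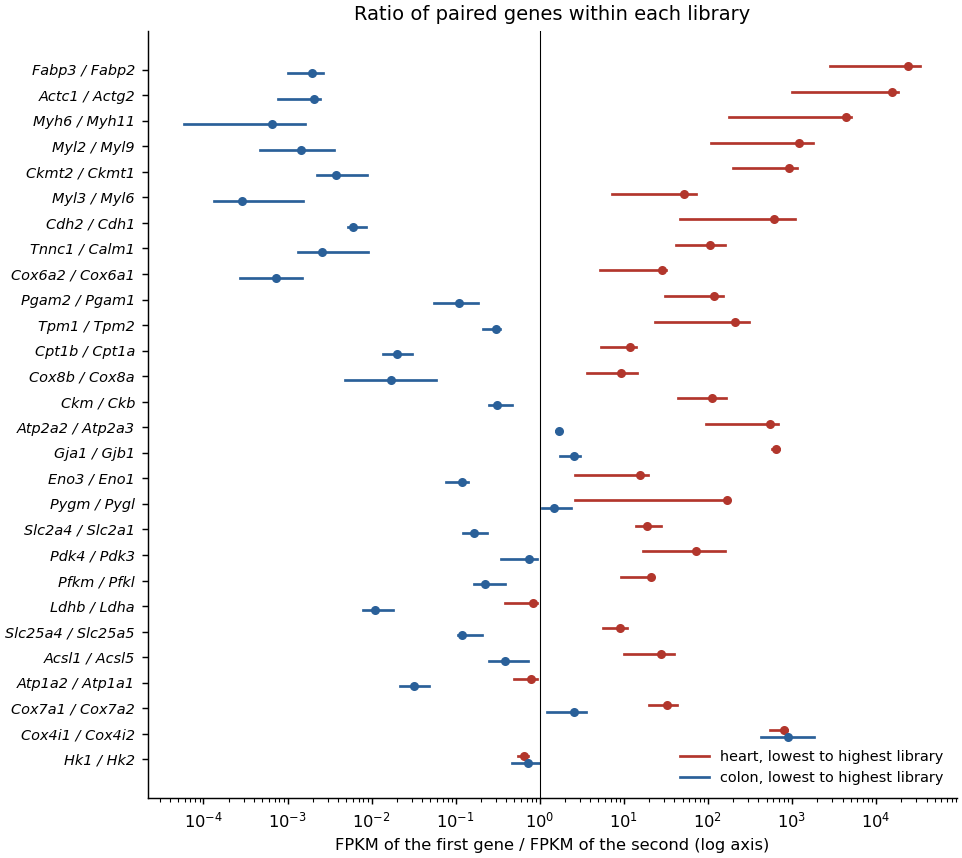
Ratio of FPKM of 28 pairs of genes within each library (log axis), with the lowest, median and highest heart (red) and colon (blue) library; libraries without a count of the second gene, 2 for *Fabp3* and *Fabp2* and 3 for *Gja1* and *Gjb1*, are left out. The ranges are apart in 26 pairs and overlap for *Cox4i1* with *Cox4i2* and *Hk1* with *Hk2*.

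Smooth muscle genes were higher in colon as a group, but with more exceptions than the sarcomere. Of 30 members, 21 were higher in colon, 4 in heart and 5 were not called, with a median log2 difference of -2.24 (-2.85 without the 3 libraries). *Actg2* was at 0.82, 0.341, 3.17, 0.473 and 0.518 FPKM in the hearts and at 1040 to 4370 FPKM (median 1780) in colon, a log2 difference of -10.79 ± 0.647 (adjusted P = 2.96e-08) that was -11.47 without the 3 libraries. *Acta2*, the actin of vascular and other smooth muscle, was at 44.8, 54.4, 132, 68.7 and 95.7 FPKM in heart and at 1670 to 3680 FPKM (median 2190) in colon, which gave -4.36 ± 0.313 (adjusted P = 1.43e-07). Both actins were high in every colon, and female heart 3 was the highest heart for both.

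The actin-binding protein *Tagln* was at 7.75, 6.88, 43.4, 9.23 and 6.45 FPKM in heart and 1080 to 2660 FPKM (median 1600) in colon, with a log2 difference of -6.65 ± 0.488 that was -7.27 without the 3 libraries. *Myh11*, the smooth muscle myosin heavy chain, was at 0.678, 1.03, 9.91, 2.42 and 0.946 FPKM in heart and at 330 to 811 FPKM (median 599) in colon. Its log2 difference of -7.44 ± 0.726 (adjusted P = 2.07e-06) was -8.43 without the 3 libraries. *Mylk*, the kinase that switches smooth muscle myosin on, differed by -5.59 ± 0.276, and the light chains it serves with, *Myl9* and *Myl6*, by -5.21 and -3.07.

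In contrast, 4 members were higher in heart, and with library totals 3 were, beside 23 higher in colon. Desmin (*Des*), the intermediate filament of both kinds of muscle, was at 1150, 1410, 518, 1090 and 1240 FPKM in heart and at 617 to 1840 FPKM (median 935) in colon, with overlapping libraries (log2 difference 0.75 ± 0.366, adjusted P = 0.0908), and it was called higher in heart at the same size (0.75) without the 3 libraries. *Myocd*, the coactivator of serum response factor, was at 9.49 to 15 FPKM in heart and 5.42 to 9.65 FPKM in colon and was higher in heart by 1.41 ± 0.233 (adjusted P = 0.000191). The other members higher in heart were *Nexn*, a filament protein, by 3.92 ± 0.268, and the muscarinic receptors *Chrm2* and *Chrm3* by 1.36 and 1.24, of which *Chrm3* was not called with library totals (0.69). Beside *Des*, the members not called were *Synpo2* (-0.24 ± 0.24), *Ppp1r12b* (-0.23 ± 0.222), *Aoc3* (-1.62 ± 0.782) and *Itga8* (0.18 ± 0.342). Of these, *Synpo2* (-0.84) and *Ppp1r12b* (-0.81) were called higher in colon with library totals, and *Aoc3* without the 3 libraries (-3.60).

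The epithelium gave large differences in favour of colon. Of 25 genes of epithelial adhesion and keratins, 23 were higher in colon, 1 in heart and 1 was not called, with a median of -7.73. *Epcam*, the surface adhesion molecule, was at 382 to 602 FPKM (median 507) in colon and had no count in 3 hearts and at most 0.0437 FPKM in the others, with a log2 difference of -15.36 ± 0.512 (adjusted P = 2.16e-09). *Krt20*, a keratin of mature intestinal cells, was at 262 to 764 FPKM (median 587) in colon and at most 0.295 FPKM in heart. *Cldn23*, a tight junction protein, had no count in heart and was at least 195-fold higher in colon. The exceptions were desmosome proteins, which cardiomyocytes use in their intercalated discs. Plakophilin 2 (*Pkp2*) was higher in heart, at 50.3 ± 12.9 and 16.3 ± 3.3 FPKM (2.28 ± 0.287, adjusted P = 1.97e-05), and plakoglobin (*Jup*), at 62.5 ± 13.3 and 66.3 ± 20.6 FPKM, was not called (0.53 ± 0.277, adjusted P = 0.112), though it was called higher in heart without the 3 libraries (0.63).

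Of 21 intestinal transcription factors, 20 were higher in colon, with a median of -9.61. *Cdx2*, which specifies intestinal epithelium, was at 52 to 93.6 FPKM (median 67.8) in colon and at most 0.0176 FPKM in heart, a log2 difference of -13.44 ± 0.514 (adjusted P = 3.86e-09). *Hnf4a*, a nuclear receptor of enterocytes, was at 117 to 261 FPKM (median 197) in colon and at most 0.0459 FPKM in heart. Its relative *Hnf4g* had no count in heart and was highest in the libraries with small intestinal genes, at 65.7 FPKM in female colon 1 and 32.1 FPKM in male colon 3, with a colon median of 15.5 FPKM. The factors of the secretory lineage, *Atoh1* and *Spdef*, had no count in heart and were at least 53.6-fold and 23.3-fold higher in colon. *Sox9* was not called, at 1.53 ± 0.783 FPKM in heart and 2.35 ± 0.568 FPKM in colon.

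Goblet cell genes had a median of -11.71, with 16 of 17 tested members higher in colon. *Zg16*, a lectin of the mucus layer, was at 313 to 586 FPKM (median 475) in colon and had no count in 4 of the 5 hearts. *Fcgbp*, which binds to mucus, was at 162 to 362 FPKM (median 320), and *Muc2*, the gel-forming mucin of that layer, at 96.1 to 524 FPKM (median 118), with the highest value in female colon 1. The log2 differences of these genes were -15.34, -15.48 and -14.17 (-13.45 for *Muc2* without the 3 libraries). *Muc3*, a membrane mucin, was at 1310 to 3330 FPKM (median 2140) in colon and at most 0.233 FPKM in heart. *Ang4*, a defence protein, varied widely among the colons. It was at 37.6 FPKM in female colon 1 and 34.4 FPKM in male colon 3, with a colon median of 2.69 FPKM. With no count in heart, it was at least 3.99-fold higher in the lowest colon (adjusted P = 0.0025).

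Of 26 genes of colonocyte transport, 25 were higher in colon, with a median of -6.04. *Car1*, a carbonic anhydrase that supplies bicarbonate and protons for salt uptake, was the most abundant of these, at 7580 to 14800 FPKM (median 10300) in colon and 0.466, 0.932, 1.12, 0.506 and 0.206 FPKM in heart. Its log2 difference was -13.68 ± 0.54 (adjusted P = 2.32e-09). *Slc26a3*, the chloride-bicarbonate exchanger of the surface, was at 395 to 689 FPKM (median 473) in colon and at 3.67, 3.16, 6.66, 2.98 and 3.72 FPKM in heart, a log2 difference of -6.48 ± 0.299 (adjusted P = 4.62e-09). The water channel *Aqp8* was at 551 ± 166 FPKM in colon and 0.764 ± 0.451 FPKM in heart, and *Guca2a*, which encodes the peptide guanylin, at 1210 ± 385 and 0.0751 ± 0.0778 FPKM.

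The promoter window of *Slc26a3* is shown because it was the only one of 16 windows of this list with a match to the site of HNF1, a homeodomain factor of gut epithelium. The letters searched were GTTAATNATTA on both strands, and the match begins 84 bases before the start.
Slc26a3, chr12:31437969-31438268, plus strand: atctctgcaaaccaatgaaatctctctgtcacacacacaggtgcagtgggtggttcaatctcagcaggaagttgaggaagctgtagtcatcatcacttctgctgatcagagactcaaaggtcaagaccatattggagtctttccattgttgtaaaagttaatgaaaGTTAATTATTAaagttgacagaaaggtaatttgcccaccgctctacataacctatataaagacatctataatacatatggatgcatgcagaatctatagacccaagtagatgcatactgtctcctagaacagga
The same letters were found in 0.117% of tested protein-coding genes, in 0.264% of those higher in colon and in 0.0714% of those higher in heart. The letters CAAAGTCCA, a site of HNF4, were found in 0.603% of tested protein-coding genes, in 0.897% of those higher in colon and 0.262% of those higher in heart.

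Outside the gene lists, the abundant genes with the largest differences were of the same tissues. *Mb*, which encodes myoglobin, the oxygen store of striated muscle, was at 16000, 11000, 6430, 9060 and 11100 FPKM in the hearts and 0.166 to 4.25 FPKM in colon, with a log2 difference of 13.84 ± 0.736 (adjusted P = 1.19e-08). On the colon side, *Lypd8*, which keeps flagellated bacteria from the epithelium, was at 3090 ± 1040 FPKM and 0.258 ± 0.219 FPKM in heart (-13.82 ± 0.475, adjusted P = 1.8e-09). *Cyp2c55*, a cytochrome P450, was at 3500 ± 405 FPKM in colon and 0.195 ± 0.148 FPKM in heart, and the calcium carrier *S100g* at 304 ± 102 and 0.186 ± 0.207 FPKM.

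Genes of stem cells and of cell division differed by less. Of 14 genes of crypt stem cells and Wnt signalling, 9 were higher in colon, 1 in heart and 4 were not called, with a median of -1.65. *Lgr5*, the receptor that marks stem cells, was at 0.455 to 0.919 FPKM (median 0.68) in colon, and in heart at 0.00939 to 0.0233 FPKM in 4 libraries and 0.328 FPKM in female heart 3. *Smoc2*, which is also made outside the gut, was at 21.4 ± 3.36 FPKM in heart and 5.2 ± 1.24 FPKM in colon (2.60 ± 0.18, adjusted P = 1.05e-07). Of 24 genes of cell division, 19 were higher in colon and 5 were not called, with a median of -1.75. The mitotic genes *Mki67* and *Top2a* differed by -3.49 and -3.29. The 5 not called were genes of DNA replication, and all 24 were higher in colon with library totals as scaling.

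Hormone-secreting and nervous cells of the gut were seen at low levels. Of 12 enteroendocrine genes tested, 11 were higher in colon. *Gcg*, the precursor of GLP-1, and *Sct*, which encodes secretin, had no count in heart and were at 11.5 ± 3.47 and 12.6 ± 5.6 FPKM in colon, at least 59.6-fold and 33.9-fold higher. Of 21 genes of enteric neurons, glia and interstitial cells of Cajal, 19 were higher in colon and 2 were not called, with a median of -3.07. Without the 3 libraries 18 of 20 tested were higher in colon, with a median of -2.49, and *Penk*, an opioid precursor, was higher in heart (0.73, against 0.32 ± 0.507 with all libraries), as it was without female colon 1 alone (1.06). *Vip*, a relaxing neuropeptide, had no count in heart and was at 5.57 to 8.21 FPKM in colon, at least 124-fold higher. *Kit*, which marks the pacemaker cells of Cajal, was at 10.5 to 21.5 FPKM (median 15) in colon and at 0.53 to 2.19 FPKM in heart.

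Hox genes, which hold a cell's position along the body axis, were higher in colon. Of 29 loci tested, 24 were higher in colon, 5 were not called and 0 were higher in heart, with a median of -5.92, and 27 were higher in colon without the 3 libraries. *Hoxb9* and *Hoxa9* had no count in heart and were at 7.14 ± 0.693 and 2.91 ± 0.765 FPKM in colon, at least 102-fold and 64.5-fold higher. *Hoxa10* was at 6.35 to 14.9 FPKM (median 11.7) in colon and had 1 heart library above 0, at 0.0156 FPKM. *Hoxa5* was at 6.15 FPKM in female heart 3, above all colons (1.77 to 2.37 FPKM), and at most 0.109 FPKM in the other hearts. Its log2 difference was -2.18 ± 0.973 (adjusted P = 0.0662) and -4.26, called, without the 3 libraries.

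Cells that supply or fill both organs differed as well. All 15 endothelial genes were higher in heart, with a median of 2.95. *Pecam1* was at 31.1, 61.3, 55.4, 72.1 and 41 FPKM in the hearts and at 9.1 to 16.6 FPKM (median 12.9) in colon, a log2 difference of 2.57 ± 0.241 (adjusted P = 1.45e-06), and *Vwf*, which encodes von Willebrand factor, differed by 4.13 ± 0.306. Red cell genes were higher in heart at all 7 members, with a median of 8.62. *Hbb-bs*, a beta-globin, was at 20300, 19300, 5620, 8400 and 6970 FPKM in heart and at 21.7 to 67 FPKM in colon. The summed red cell level thus ran from 7020 to 24400 FPKM among hearts and from 25.5 to 90.4 FPKM in colon, and the part of blood left in the tissue in other results was not tested.

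Lymphocyte and antigen presentation genes were mixed, with 11 of 22 higher in colon, 1 in heart and 10 not called, and with 16 higher in colon without the 3 libraries and 9 without male colon 1. *Igha*, the heavy chain of IgA, was at 155 to 397 FPKM (median 294) in colon and at most 1.81 FPKM in heart, and *Pigr*, which carries IgA through the epithelium, at 246 to 424 FPKM (median 351) and at most 0.184 FPKM. In all, 153 of 179 tested immunoglobulin and T cell receptor segments were higher in colon and 1 in heart. *Ighm* was not called (0.65, adjusted P = 0.412; -0.50 without female heart 3), and its highest libraries were female heart 3 at 213 FPKM and male colon 1 at 96.4 FPKM.

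Matrix genes of fibroblasts were closer between the tissues, with 9 of 15 higher in colon, 3 in heart and 3 not called, and a median of -0.74. With library totals 11 were higher in colon and 0 in heart. *Col1a1*, a fibrillar collagen chain, was at 35.2 ± 21.9 FPKM in heart and 92.1 ± 20.5 FPKM in colon, with libraries that overlapped through female heart 3 (SE of the log2 difference 0.25, adjusted P = 0.00383, higher in colon). *Postn*, a matricellular protein, differed by -3.60 ± 0.37, and the proteoglycan *Dcn* was higher in heart by 1.10 ± 0.221, but not called with library totals (0.59). Of 8 tested genes of the fat list, *Fabp4* and *Cidea* were called, both higher in heart, by 2.38 and 5.08 (4.41 for *Cidea* without the 3 libraries), and 6 were not called. Without the 3 libraries, or without female heart 3 alone, 6 of 8 were higher in colon, *Adipoq* among them, at a log2 difference of -5.59. Of 11 skeletal muscle genes 9 were higher in heart, among them *Acta1*, the skeletal actin that the heart also makes, at 312 ± 147 and 4.72 ± 1.33 FPKM, and 5 of 9 tested were higher without the 3 libraries or without female heart 3 alone. *Myh2*, a fast myosin heavy chain, was then higher in colon, by -2.68 and -2.45 (-1.21 ± 0.764 with all libraries). The count was 3 of 11 without male heart 1, 5 with DESeq2 and 6 with library totals.

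Small intestinal genes, a list drawn up after their values were seen, were higher in colon at 12 of 13 members, while 6 of 9 tested were higher in colon without the 3 libraries. The count was 6 of 10 without female colon 1 or male colon 3 alone, 5 of 13 without male heart 1 or male heart 2, and 2 of 13 with DESeq2. For *Sis*, sucrase-isomaltase, female colon 1 and male colon 3 were at 114 and 49 FPKM and the other colons at 0.0941 to 0.164 FPKM. *Mttp*, the transfer protein of lipoprotein assembly, was not called with all libraries (-1.21 ± 1.08, adjusted P = 0.341) and was higher in heart without the 3 (2.77). All 5 atrial genes, a list drawn up in the same way, were higher in heart with and without the 3 libraries, with medians of 6.88 and 4.51, and 4 of 5 were with DESeq2 or without male heart 1. Markers of the pancreas and of lung and liver were mostly too low to test, with 1 of 11 and 4 of 9 genes tested. Of these, *Apob* was at 36.2 to 220 FPKM in colon, and *Cpb1* at 0.0519 to 0.371 FPKM. Of 11 genes of bladder, prostate and squamous epithelium 3 were tested, and *Upk1b* was higher in heart, by 1.66 ± 0.345, with libraries that overlapped.

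Long non-coding RNAs cannot be read apart from the genes opposite them. Of 21 lncRNAs whose exons lie at least 99% opposite the exons of a single protein-coding gene with at least 10000 counts, 0 were without counts, and their level per base was 0.0818 to 6.31 times that of the coding gene, with a median of 1.45. The lncRNA *Gm49540*, opposite *Mb* over 410 of 638 bases, was at 0.421 to 0.47 times *Mb* in every heart and differed between the tissues by 13.77, as *Mb* did by 13.84. *Gm48529*, opposite *Tagln* over 877 of 2536 bases, was at 0.566 to 0.568 times *Tagln* in the 6 colons, with log2 differences of -6.63 and -6.65. Inside the largest mitochondrial locus, all 6 rows on the other strand had counts and 0 of 10 rows on its own strand did. The setting of strand in counting is not given in the sources used here, and these values do not separate the strands. Of 158 genes named here, 33 have exons that lie in part opposite those of another row, over 1372 of 2333 bases for *Pln*, 690 of 2500 for *Myh7*, 453 of 117334 for *Ttn*, 565 of 834 for *Nppa* and 3827 of 3828 for *mt-Nd6*.

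Of 3091 lncRNAs tested, 723 were higher in heart and 977 in colon. Exons opposite another gene were present in 49.9% of those tested, in 59.8% of those higher in heart and in 40.3% of those higher in colon, and without them 291 and 583 of 1548 were called. *Gm3054*, which has no gene opposite, had the highest mean colon level of the 3091 lncRNAs tested, at 906 to 2290 FPKM, with 2 counts over the 5 hearts (chr5:137154029-137166070). Among pseudogenes, *Btnl5-ps* had no count in heart and was at 83.4 ± 18.5 FPKM in colon, at least 706-fold higher (chr17:34488070-34497429). Pseudogenes higher in heart included *Gm29216* and *Gm28437*, neighbours on chr1 in a stretch known as a nuclear copy of mitochondrial DNA, at 22.9 to 239 and 24.4 to 78.7 FPKM in heart and 8.45 to 22.9 and 5.29 to 16.9 FPKM in colon. Female heart 1 was the highest library for both, and without it the log2 difference of *Gm29216* was 1.63 in place of 2.78. The part of mitochondrial reads in these values was not tested. Pseudogenes took 0.1278% of counts in heart and 0.2751% in colon (exact permutation P = 0.00433, the smallest possible).

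Genes held at a like level in both tissues were sought as those not called, with a 95% interval of the log2 difference within 0.25 of 0. There were 2 such genes of 21563, and 0 of them were protein-coding, so that the 7821 genes not called cannot be read as equal. Whether the difference between heart and colon itself differed between females and males was tested as an interaction. With edgeR 0 of 21563 genes (0%) were called, 1120 had an unadjusted P under 0.05, and the smallest adjusted P was 0.941. With DESeq2 13 genes were called, in an edgeR fit over all 29 libraries of the series 6, and in an edgeR fit without the low-count filter 271. The male heart group held 2 libraries, which limited this comparison.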

How the data were processed

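Poly(A)-independent RNA-seq was measured in 5 heart and 6 colon libraries, grouped by the tissue, sex and replicate in the labels. The deposited table holds raw counts per locus, made by the authors by counting uniquely mapped reads on an annotation that combines Iso-seq transcripts with ENSEMBL genes. The submitters' processing notes name FastQC 0.11.8, MultiQC 0.9, HISAT2 2.0.5, featureCounts 1.6.3 and the build mm10. Gene names and classes came from GENCODE M21 and from the deposited annotation, and exon lengths from the deposited annotation, in which an Iso-seq locus can join several genes. Of 55356 loci, 555 join several genes, and 0 columns of other samples' values were present beside those of the series.

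From the deposited counts, edgeR 4.0.16 in R 4.3.3 was run with filterByExpr, TMM and a quasi-likelihood fit with 4 group means, and the contrast was the mean of the heart groups minus the mean of the colon groups, with Benjamini-Hochberg adjustment over 21563 genes at 0.05. Single values per library were compared with two-sided exact permutation tests in SciPy 1.17.1 (Python 3.11.15, pandas 2.3.3). FPKM were computed from library-size-scaled counts and exon length. A fold against a tissue without counts was taken against 3 counts per library, which covers counting error only. Total counts were 11742417 to 25062064 a library, and genes near 3 counts are imprecise.

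Named genes were members of 27 lists and 28 gene pairs, and in each direction 12 protein-coding genes by level (log2 difference of at least 3), 12 by difference (lower tissue at 0.1 FPKM or more), and 4 lncRNAs and 3 pseudogenes by level (at least 2), all called and without overlap of the libraries. The members and lists were chosen with earlier results of these data known. The atrial and small intestinal lists, the opposite-strand checks and the omission of 3 libraries were added after values were seen. Alternatives were DESeq2 1.42.0 (limma 3.58.1 was loaded with edgeR), other scalings and filters, all 29 libraries, blocks, single sexes and each library left out. The steps were tested on simulated data. Some genes of the lists are not reported here by name.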

Additional observations from a re-analysis of the deposited data

Results flagged for a closer look

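In 16 of 64 sets of values, 1 library lay far from the others of its tissue by Dixon's criterion. Chance meets it in about 1 in 20 independent sets. These sets share libraries, and the atrial and small intestinal lists, which gave some of the 16, were drawn up after values were seen. The count of 16 can therefore not be set against that rate. Female heart 3 was the library far from the others in 13 sets. Its 10 most abundant nuclear genes took 13.06% of nuclear counts (19 to 21% in the other hearts), and 25256 genes had a count at equal depth (22412 to 22440). Its summed level was 5290 FPKM for atrial genes (48.3 to 184 in the others), 5950 FPKM for fat (385 to 517) and 48.7 FPKM for lung and liver (0.307 to 2.39). Lymphocyte genes summed to 1380 FPKM (374 to 509), fibroblast genes to 2350 FPKM (762 to 1050) and cell division genes to 102 FPKM (49.6 to 63.3). Hox genes summed to 19.7 FPKM (1.6 to 2.77), goblet cell genes to 14.6 FPKM (5.43 to 7.86), small intestinal genes to 28.6 FPKM (6.49 to 11.8), and bladder, prostate and squamous genes to 12.7 FPKM (3.11 to 4.97). Of the lists with a lower sum there than in each other heart, the citric acid cycle met the criterion, at 2920 FPKM (4080 to 4440).

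Male colon 1 stood out for cell division, at 247 FPKM (168 to 196 in the other colons), and for fibroblasts and matrix, at 2190 FPKM (1460 to 1720). Female colon 1 stood out for atrial genes, at 4.54 FPKM (0.962 to 1.85). The criterion looks for a single library and can miss libraries that stand apart together. For small intestinal genes, female colon 1 and male colon 3 summed to 3725 and 3697 FPKM (30.1 to 63.5 in the other colons), and neither met it. What sets these libraries apart was not tested.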

How the results depend on the processing

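Of 157 named genes fitted, 132 kept their direction and their side of the threshold under all alternatives in which they were tested. A missing adjusted P was counted as no change of side. Tested against a log2 difference of 1, 7256 genes were called, 3074 higher in heart and 4182 in colon, since that test asks for more than a difference from 0. With library totals in place of TMM 3896 genes were higher in heart. The interaction with sex gave 13 calls with DESeq2, 271 without the low-count filter and 6 with all 29 libraries. The difference of the mitochondrial share was 5.807 percentage points in females alone and 9.51 in males alone, at exact P of 0.1 and 0.2, the smallest these designs allow. No gene of like level (0) was left without mitochondrial genes or without the 3 libraries. The causes of these changes were not tested.

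Leaving out 1 library at a time gave 12103 to 14965 called genes, 5793 to 6791 higher in heart and 6310 to 8174 in colon, 454 to 479 called list members, 0 to 0 interaction calls, differences of 6.814 to 8.37 points in the mitochondrial share and 4.878 to 6.856 points in the share of the 10 most abundant genes, and -3707 to -2996 detected genes.

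Genes whose sign turned had no call with all libraries. With library totals these were *Acads* (-0.15), *Jup* (-0.06) and *Suclg2* (-0.43, with -0.00 to 0.31 over the omissions of 1 library, the lowest without female heart 1). *Adipoq* was at 1.43 without sex in the fit and *Ighm* at -0.50 without female heart 3, 1.38 without male colon 1, -0.75 without the 3 libraries and -0.23 with the library code as a block. *Mttp* was at -1.49 without female colon 3, 1.03 without female colon 1, 0.42 without male colon 3 and 2.77 without the 3 libraries. *Itga8* was at -0.23 with library totals, -0.43 without the 3 libraries, -0.04 with the replicate number and -0.37 with the library code as a block, and at -0.33 without female heart 3 to 0.36 without female heart 1. *Penk* was at -0.15 with library totals and at -0.00 without female heart 3 to 1.06 without female colon 1. The median of the bladder, prostate and squamous list was 0.32 with TMM and all libraries and -0.10 with library totals. That of the lung and liver list was -7.63 with edgeR and all libraries and 2.23 with DESeq2. It was -11.74 without female heart 3, 1.99 without male heart 1 and 1.12 without male heart 2.

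With the replicate number as a replicate block, 5531 genes were higher in heart and 6169 in colon (11700 in all), with 0 interaction calls. *Mttp* was at 1.75, *Adipoq* (-4.63), *Hoxa5* (-3.27), *Aoc3* (-2.76) and *Myh2* (-1.75) were called higher in colon and *Hk1* (0.75) was not called. For same-numbered heart and colon libraries, deviations from group means had correlations of -0.103, -0.0363, -0.0824, 0.0435 and 0.0184. With so few libraries in a group, such values cannot show whether libraries are paired. No pairs were used in the fit without a block. The libraries that stood apart, female heart 3, female colon 1 and male colon 3, had the library codes 8, 49 and 59. Libraries that share the first digit of their library code had correlations of 0.135 (codes 13 and 14), -0.0801 (43 and 49), 0.135 (43 and 44), 0.0435 (63 and 64) and 0.0235 (53 and 59). With that digit as a block, 6670 genes were higher in heart and 7670 in colon, and genes with no call in the fit without a block were called: *Acads* (0.74), *Des* (1.04) and *Jup* (0.85) higher in heart and *Adipoq* (-5.99), *Hoxa5* (-4.24), *Aoc3* (-3.38) and *Myh2* (-2.57) higher in colon.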
